A study of Homo sapiens with 9 samples.

Results

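Imprinted control regions were followed here as 37 CCCGGG sites, out of 64313 genomic sites of the series with values in at least 2 libraries of each group. The sites were chosen by position and by having enough values, not by their methylation level, in 10 windows of the hg19 genome named after GNAS, H19, KCNQ1OT1, SNRPN, MEG3, PEG3, MEST, PEG10, PLAGL1 and GRB10. The windows held 124 listed CCCGGG sites, of which 15 had values in too few libraries and 72 had none, and 5 windows contained a site that met the rule. GNAS (chromosome 20, 57410000 to 57470000) held 16 sites, H19 (chromosome 11, 2015000 to 2030000) 7, KCNQ1OT1 (chromosome 11, 2715000 to 2725000) 5, MEG3 (chromosome 14, 101270000 to 101300000) 4 and GRB10 (chromosome 7, 50845000 to 50853000) 5. No hg19 gene annotation was used here, so positions within the windows are not assigned to promoters, exons or introns. Nor are they placed inside or outside the control region itself.

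Methylation was measured by DREAM, digital restriction enzyme analysis of methylation, in HEK293T, an embryonic kidney cell line with SV40 T antigen that takes up plasmids readily. In DREAM, SmaI first cuts CCCGGG copies whose CpG is unmethylated, XmaI then cuts the methylated copies, and the read ends tell them apart, so that each site has a methylation percentage. The 3 groups of 3 libraries were cells transfected with empty pIRES vector, with TET1-ALT or with TET1-FL, and genomic DNA was isolated 4 days after transfection. TET1-FL is full-length TET1 and TET1-ALT is the isoform that the series' title describes as lacking the CXXC domain. Cells received a pIRES plasmid in every group, the control included, and the labels name no selection of transfected cells. TET1 expression was not analysed here. Whether the libraries of a group come from separate cultures is not stated, so p-values reflect the spread among libraries, which may be technical. Each library had a value at 61549 to 72340 sites, with at least 20 reads behind each value and no further record of depth used here.

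Imprinted genes are expressed from 1 parental chromosome, and most are controlled in clusters by a region that carries DNA methylation on the maternal or on the paternal copy. In a diploid tissue such a region therefore reads as intermediate methylation. The mark is set in the germ line, kept by maintenance methylation in somatic cells and erased in primordial germ cells, where TET1, a dioxygenase that oxidises 5-methylcytosine, is known to take part. The 5 measured windows include both kinds: the control regions at H19 and MEG3 are methylated on the paternal copy, those at KCNQ1OT1 and GRB10 on the maternal copy, and GNAS has parts of each kind. HEK293T is an established, aneuploid line, and the parental copies cannot be told apart in these data.

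The sequence assayed at every site is CCCGGG, with the measured CpG in its centre. To show how it lies in promoter DNA of these genes, the RefSeq promoter table (GRCh38.p14, 300 bases each) was searched for CCCGGG, which is palindromic and so reads alike on both strands. Of the 10 genes, 7 were in the table with 29 promoters, of which 3 held CCCGGG (2 of GNAS and 1 of GRB10), while 20.9% of all 35116 promoters in the table did. KCNQ1OT1, PEG3 and PEG10 were not matched. The 66 bases around each match are printed 5′ to 3′ with the recognition sequence in capitals:
GNAS, chr20:58841394-58841459, plus strand, 196 bases before the start: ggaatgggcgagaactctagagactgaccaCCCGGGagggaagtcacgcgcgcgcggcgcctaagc
GNAS, chr20:58852771-58852836, plus strand, 180 bases before the start: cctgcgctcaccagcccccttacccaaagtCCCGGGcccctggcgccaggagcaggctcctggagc
GRB10, chr7:50792999-50793064, minus strand, 160 bases before the start: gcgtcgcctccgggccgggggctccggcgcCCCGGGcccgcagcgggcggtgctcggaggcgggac
The 250 bases before the same starts held 27, 18 and 40 CpG dinucleotides. The sequences are of another build than the measurements and are not tied to any measured site below.

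The measured windows did not share 1 level. Averaged over sites with a value in all 9 libraries, KCNQ1OT1 had the lowest mean methylation at 18.8% (5 sites), followed by H19 at 60.6% (7 sites), GNAS at 62.4% (13 sites), MEG3 at 68.7% (4 sites) and GRB10 at 98.2% (4 sites). Library means ranged from 17.04% to 20.1% at KCNQ1OT1, 57.8% to 62.4% at H19, 61.8% to 63.1% at GNAS, 67.2% to 70.95% at MEG3 and 97.5% to 99.0% at GRB10. H19 and GNAS overlapped in these ranges, and the other neighbours in the order did not. The GNAS mean hides a wide spread between sites and was 55.8% over all 16 member sites. The median over sites was 68.4% for GNAS and 65.8% for MEG3.

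Intermediate methylation, taken as a mean of 35 to 65%, was found at 8 of the 37 sites (21.6%), and at 10.9% of all 64313 sites. These 8 sites were 3 in GNAS, 3 in H19 and 2 in MEG3. A further 7 members were under 20%, 14 were over 80% and 8 lay between these bands, while over all sites 43.4% were under 20% and 31.3% over 80%. The median member was at 60.2%, and the median of all sites was at 41.5%. Among 120 sites within 100 kb of the windows, 17.5% were intermediate. Of these neighbours 75 lay around H19, 17 around MEG3 and 6 around GNAS, so their mix of windows differs from that of the members. Intermediate methylation was thus read at a minority of the measured sites in these windows, and KCNQ1OT1 and GRB10 had none in that band. Which of the sites lie inside a control region was not determined. The median SD between replicates was 2.91 points at these 8 members (1.11 to 9.16) and 3.25 points at all 7031 sites of that band. The share of intermediate members depends on the band, at 27.0% for 30 to 70% and 16.2% for 40 to 60%, where all sites gave 14.9% and 7.18%. From the empty vector libraries only, 18.9% of members lay at 35 to 65%, and the share of all sites was not computed for that setting.

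**Figure D1:**
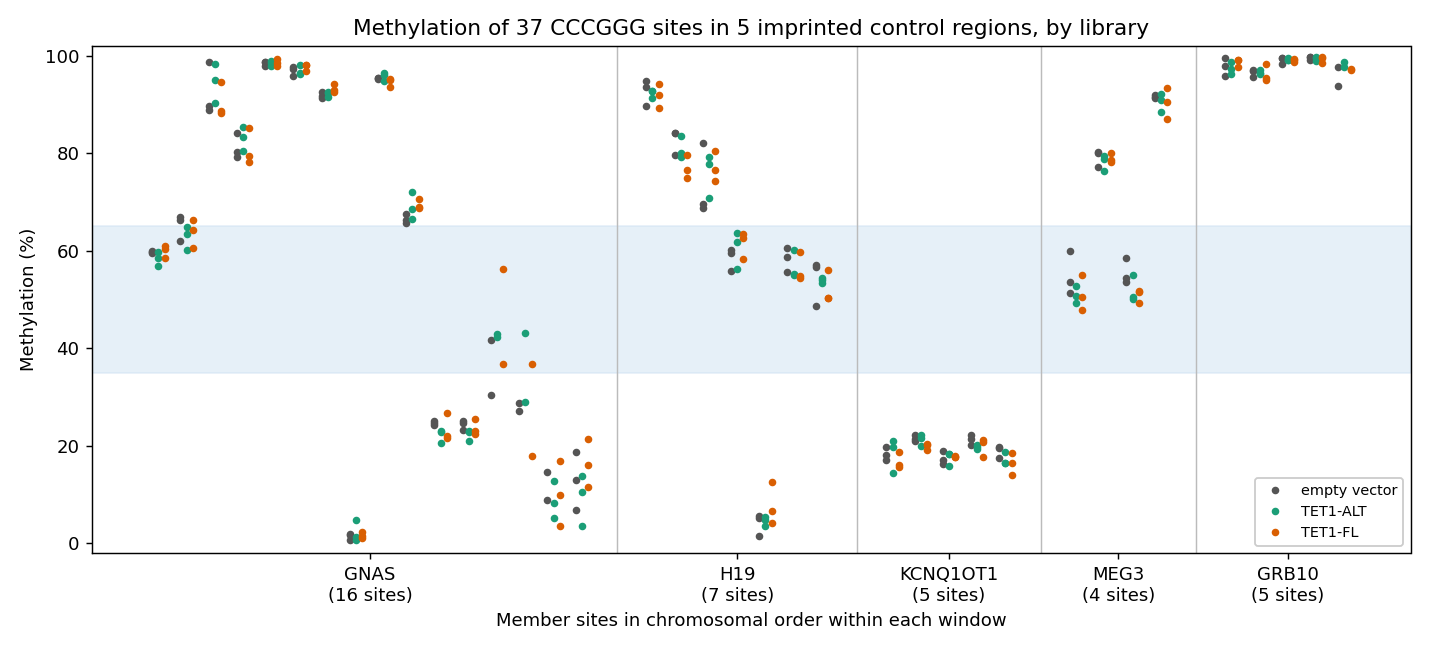
Methylation (%) of the 37 member sites in each of the 9 libraries, in chromosomal order within each window, with the 35 to 65% band shaded and 1 point per library. The 5 KCNQ1OT1 sites lie between 14.01% and 22.3%, the 5 GRB10 sites between 93.8% and 99.7%, and GNAS spans nearly the whole scale.

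GNAS encodes the stimulatory G protein alpha subunit and, from alternative starts, the neuroendocrine secretory protein NESP and the extra-large form XLαs, and it is the window with the widest range. Its 16 sites ran from 1.82% to 98.5% and fell into groups along 50598 bases. The first 2 sites, at 57414896 and 57415178, were intermediate, with means of 59.4% and 63.9%. At 57414896 the empty vector libraries had 59.8%, 59.6% and 59.9%, TET1-ALT 59.8%, 56.9% and 58.5%, and TET1-FL 58.5%, 60.9% and 60.3%. Its pooled SD of 1.11 points was the smallest of the 8 intermediate members. The next 5 sites, between 57430730 and 57431284, were highly methylated, from 81.7% to 98.5%. Within them, sites only 8 bases apart at 57430730 and 57430738 had 92.5% and 81.7%.

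The largest step between neighbouring GNAS sites lay between 57445668 and 57446253. The first of these sites was nearly unmethylated, with 2.03%, 0.78% and 1.81% in the empty vector libraries, 4.89%, 1.24% and 0.72% in TET1-ALT and 1.58%, 1.05% and 2.26% in TET1-FL. The other, 585 bases away, was at 93.6% to 96.4% in all 9 libraries. A lone site at 57456777 had 68.4%. The last 6 sites, from 57464520 to 57465494, had means between 10.2% and 41.8%, with 2 under 20%, 3 between the bands and 57464804 in the intermediate band. The pair at 57464520 and 57464781 had 23.4% and 23.4%, with pooled SDs of 1.78 and 1.30 points. The other 4 of these sites varied more, with SDs of 5.18 to 9.64 points. The site at 57464804 ranged from 30.5% to 56.2% over the 6 libraries that had a value.

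**Figure D2:**
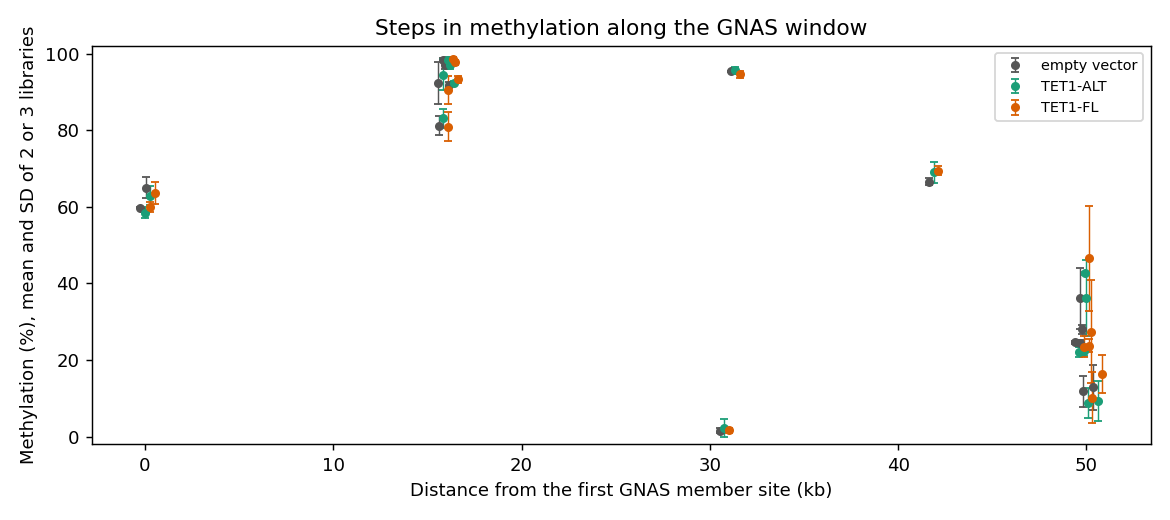
Methylation (%) of the 16 GNAS member sites against distance from the first site (kb), as group means with the SD of 2 or 3 libraries and the groups drawn 0.25 kb apart for legibility. Intermediate sites at the left are followed by high sites near 16 kb, a low and a high site near 31 kb, and 6 sites with means of 10.2% to 41.8% near 50 kb, one of them intermediate.

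H19 is a maternally expressed non-coding RNA, and the region upstream of it controls both H19 and the neighbouring growth factor gene IGF2 through binding of the insulator protein CTCF to the unmethylated copy. Intermediate values were seen at 2021136, 2021948 and 2022355, with means of 60.2%, 57.1% and 53.5%. At 2021948 the libraries had 60.5%, 58.8% and 55.7% with empty vector, 60.2%, 54.9% and 55.2% with TET1-ALT and 54.4%, 59.7% and 54.9% with TET1-FL. The groups overlapped there. A low site at 2021718, with a mean of 5.50% and a range of 1.44% to 12.6%, lay 582 bases from one of these intermediate sites and 230 bases from another. The site at 2021024 had 75.5%. Further along, 2015665 and 2015998 were high, at 92.2% and 80.2%. Seen as a whole the H19 window held 3 intermediate, 1 low, 2 high and 1 other site, while its 75 measured neighbours within 100 kb had a median of 72.6% and 13.3% intermediate sites.

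KCNQ1OT1 is a long antisense RNA that starts inside KCNQ1 and silences neighbouring genes such as CDKN1C on the paternal chromosome, and its control region spans the start of that RNA. All 5 measured sites lay within 788 bases, and their means were nearly the same, at 17.9%, 20.9%, 17.6%, 20.3% and 17.5% from 2720954 to 2721742. The SD between these 5 site means was 1.64 points. Averaged over the 5 sites, the empty vector libraries had 20.0%, 20.1% and 18.4%, TET1-ALT 19.2%, 19.5% and 17.9%, and TET1-FL 18.6%, 17.04% and 18.8%. None of the 45 values passed 22.3% or fell under 14.01%. The 13 measured sites within 100 kb on either side were higher, from 30.5% to 91.7%, with a median of 87.1%. These 5 sites thus lay at an even level under the intermediate band. The window also held 4 sites with a value in 1 library each, at 56.2% to 97.5%, which did not meet the rule.

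MEG3 is a maternally expressed non-coding RNA of the DLK1 cluster, whose control regions lie before the gene and at its promoter. Its 4 sites formed 2 pairs 20845 bases apart, and each pair joined an intermediate and a higher site. The site at 101270674 had a mean of 52.4% and its neighbour at 101271012, 338 bases on, had 78.8%. The site at 101291857 had 52.8% and the one at 101291998, 141 bases on, had 90.8%. Measured sites within 100 kb were intermediate in 41.2% of 17 cases, so intermediate methylation was not confined to the window.

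GRB10 encodes an adaptor protein that binds the insulin receptor and restrains growth, and its control region carries the maternal mark. All 5 sites lay within 472 bases and were close to fully methylated, with means of 97.9%, 96.4%, 99.2%, 99.3% and 97.05% from 50849998 to 50850470. At 50850436 the libraries had 99.6%, 99.7% and 99.1% with empty vector, 99.7%, 98.8% and 99.5% with TET1-ALT and 99.5%, 99.7% and 98.5% with TET1-FL. The site with the lowest mean, 50850179, was higher than 94.5% of all sites of the series. The 7 measured sites within 100 kb had a median of 0.169%, and 6 of them were under 20%. GRB10 was therefore a short, highly methylated stretch among mostly unmethylated measured sites, and no site in it read as intermediate.

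The windows of SNRPN, PEG3, MEST, PEG10 and PLAGL1 contained no site that met the rule and are not analysed further. These genes encode a splicing protein of the Prader-Willi region, a zinc finger protein, a hydrolase-like protein, a retrotransposon-derived protein and a zinc finger transcription factor. Their windows listed 27, 3, 6, 4 and 2 sites. As a wider list, 14 other imprinted loci, with hg19 windows placed from general knowledge of the genes, gave 11 measured sites in 4 loci. Of these 11 sites 1 was intermediate (9.09%), 6 were under 20% and 4 over 80%. RB1 had 3 sites of 97.3% to 98.6%, NNAT 2 sites of 10.2% and 14.5% and FAM50B 2 sites of 1.65% and 4.31%. The MKRN3, NDN and MAGEL2 window had 4 sites, at 16.2%, 14.4%, 88.0% and 47.4%. These levels are a description, with no test.

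In the comparison of TET1-FL with empty vector no member passed the test. In limma 0 of 37 members passed an adjusted p of 0.05, where 0% of all 64313 sites did, and the smallest adjusted p of a member was 0.436. The mean TET1-FL difference over the members was -0.100 points and the median -0.26 points, beside -0.829 and -0.20 points over all sites. A lower mean was seen at 23 of 37 members, against 66.3% of all sites. The mean was -0.406 points over the 33 members with a value in all 9 libraries, and 0.847 points when libraries were centred on highly methylated sites, a scaling that moved the median of all sites to 0.75 points. Among members of 20 to 95% with all values (20 sites) TET1-FL differed by -0.87 points with overlapping libraries. The 28190 such sites of the genome differed by -1.53 points without overlap. The SD between libraries was 1.21 (empty vector) and 0.76 points (TET1-FL) over the 20 members, and 0.34 and 0.29 points over the 28190 sites. A mean over fewer sites varies more, so the overlap itself does not set the members apart.

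At an unadjusted p under 0.05, 2 members were lower in TET1-FL, where 9.39% of all sites were, and 0 were higher, where 1.16% were. Centring on highly methylated sites gave 1 lower and 2 higher members, beside 1696 lower and 20474 higher sites over the genome. Without centring, the first of the 2 lower members was the H19 site at 2015998. It had 84.2%, 84.1% and 79.65% in the empty vector libraries and 74.9%, 76.6% and 79.55% in TET1-FL. All TET1-FL values lay below the lowest control value there, by a narrow margin in 1 pair of libraries. The limma difference was -5.63 points (SE 1.94, 95% interval -10.2 to -1.10, adjusted p = 0.436), and TET1-ALT had 79.2%, 80.2% and 83.6%. The second was the MEG3 site at 101291857, with 54.5%, 58.4% and 53.7% in the empty vector libraries, 50.2%, 55.01% and 50.6% in TET1-ALT and 51.5%, 49.3% and 51.8% in TET1-FL. Its TET1-FL libraries did not overlap the controls (limma difference -4.66 points, SE 1.90, adjusted p = 0.461). The GNAS site at 57431284 came next, at 91.9% ± 0.67 (SD, n = 3) in the controls and 93.3% ± 0.88 (SD, n = 3) after TET1-FL (limma estimate 1.39 points, adjusted p = 0.532).

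TET1-FL libraries lay entirely below the controls at 4 members, against 15.2% of all sites, and entirely above them at 1, against 2.38%. The lower ones were the H19 and MEG3 sites above, GNAS 57446253 and KCNQ1OT1 2721111, and the higher one was GNAS 57456777. At 2721111 in KCNQ1OT1 the empty vector libraries had 22.3%, 21.4% and 20.9%, and TET1-FL had 19.1%, 20.1% and 20.5%. At 57456777 in GNAS they had 67.6%, 65.7% and 66.4% with empty vector and 68.9%, 68.8% and 70.7% in TET1-FL. Neither passed the limma test (adjusted p = 0.591 and 0.566). At 30 of the 37 sites the 95% interval of the TET1-FL difference lay within 10 points on either side of 0.

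Means over clusters of neighbouring sites were tested in the same way. Clusters were runs of complete sites with gaps of at most 1000 bases, and limma was fitted to all 18482 of them, where 0% were called in this comparison. GRB10 differed by 0.08 points between TET1-FL and empty vector (95% interval -1.13 to 1.30, adjusted p = 0.959) and the high GNAS cluster by 0.01 points (-2.03 to 2.05, adjusted p = 0.998). KCNQ1OT1 differed by -1.37 points (-3.16 to 0.42, adjusted p = 0.449), and 4 of its 5 sites had a lower mean. Sites in 1 window can share restriction fragments and are read in the same libraries, so counts of sites are not counts of replicates. With libraries centred on highly methylated sites the KCNQ1OT1 difference was -0.42 points. The H19 cluster of 5 sites from 2021024 to 2022355, with site means from 5.50% to 75.5%, differed by 1.30 points (-2.44 to 5.04). The H19 pair at 2015665 and 2015998 differed by -3.21 points (-6.76 to 0.34, adjusted p = 0.378). The MEG3 pair at 101291857 and 101291998 had the smallest adjusted p among member clusters, 0.34, with a difference of -2.96 points (-5.85 to -0.06). Its 3 TET1-FL libraries lay below the controls, as did those of 19.6% of all clusters.

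At MEG3 the window means of both TET1 groups lay below the controls without overlap, and in the other 4 windows the groups overlapped. The mean of its 4 sites was 70.7%, 70.95% and 69.2% with empty vector, 68.3%, 68.2% and 67.2% with TET1-ALT and 67.5%, 67.9% and 68.1% with TET1-FL. The TET1-FL difference was -2.47 points and the TET1-ALT difference -2.39 points, with pairs of libraries apart by -3.46 to -1.105 and by -3.79 to -0.87 points, and both comparisons share the empty vector libraries. All 4 sites had a lower mean in each comparison, as did 66.3% of all sites for TET1-FL and 56.9% for TET1-ALT. Leaving out any library kept the TET1-FL difference between -3.01 and -2.14 points. With libraries centred on highly methylated sites the TET1-FL difference was -1.52 points. The separation was seen mainly in the window mean. By site, TET1-FL libraries lay wholly below the controls only at 101291857, and by pair only at the second pair. TET1-ALT libraries overlapped the controls at every MEG3 site and in both pairs. No site or cluster of MEG3 passed the adjusted threshold. TET1-FL libraries lay wholly below the controls at 15.2% of all sites and 19.6% of all clusters, and also in the mean over all 59751 complete sites. TET1-ALT libraries lay wholly below them at 10.6% of all sites and 9.67% of all clusters, and overlapped them in that mean. These shares are for sites and clusters, and none was computed for means over windows of this kind.

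**Figure D3:**
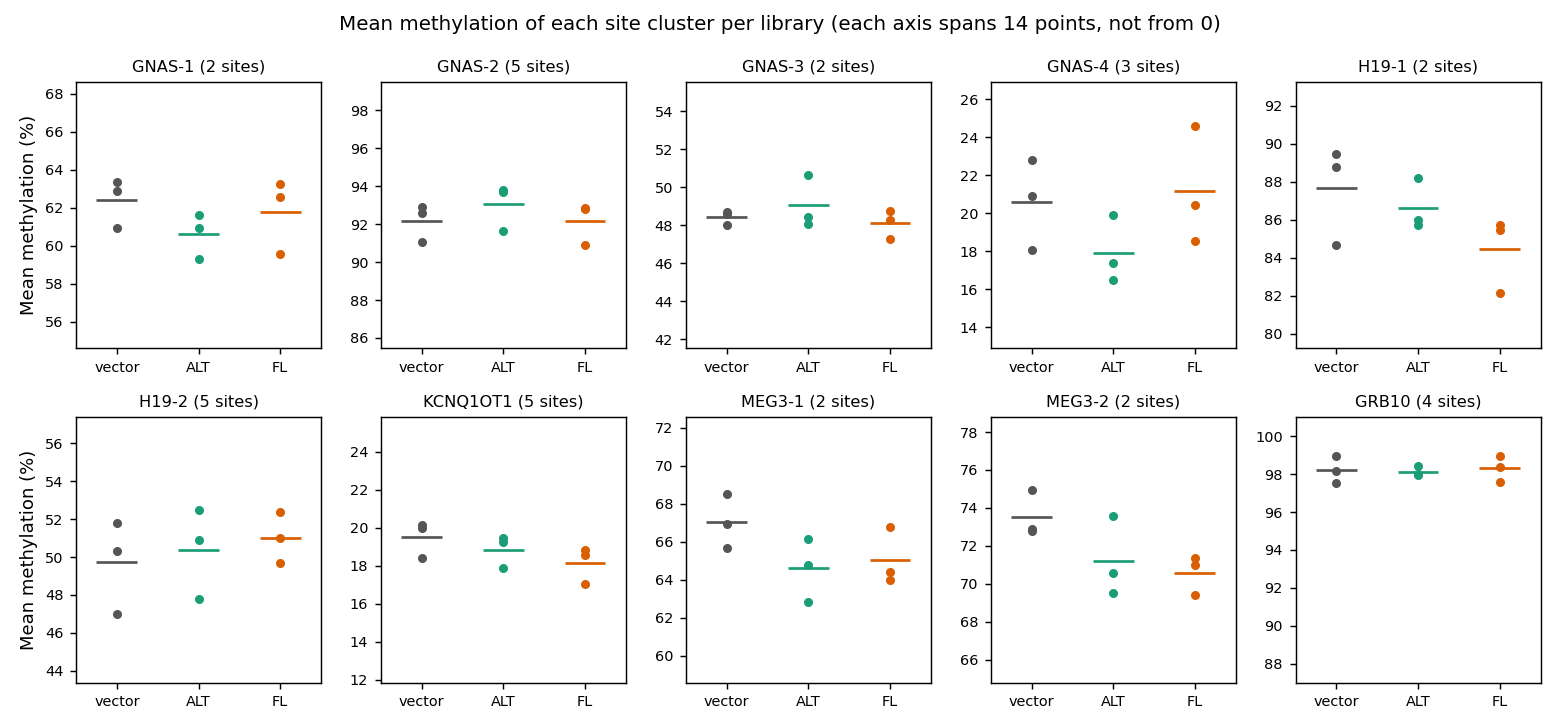
Mean methylation (%) of the 10 clusters of member sites in each library, numbered along the chromosome within a window, with 1 point per library and a line at the group mean; each axis spans 14 points and does not start at 0. The vector, TET1-ALT and TET1-FL libraries overlap in all clusters except MEG3-2, where the 3 TET1-FL points lie below the 3 vector points.

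For TET1-ALT, the isoform without the CXXC domain, 0 of 37 members passed the adjusted threshold against empty vector in limma, where 0% of all sites did, and the smallest adjusted p of a member was 0.753. The mean TET1-ALT difference over the members was -0.03 points and the median -0.14 points, beside -0.27 and -0.04 points over all sites. A lower mean was seen at 20 of 37 members, against 56.9% of all sites. Neither direction had a member at an unadjusted p under 0.05 (0 of 37), where 5.52% of all sites were lower and 1.78% higher. The 3 members with the smallest p were the MEG3 site at 101291857 (limma difference -3.58 points, adjusted p = 0.753) and the neighbouring GNAS sites at 57464781 and 57464520. At 57464520 the empty vector libraries had 24.2%, 24.6% and 25.04%, while TET1-ALT had 23.1%, 22.8% and 20.7% (difference -2.47, adjusted p = 0.792). At 57464781 the values were 23.2%, 25.06% and 24.7% with empty vector and 22.8%, 23.1% and 21.01% in TET1-ALT (difference -2.01, adjusted p = 0.792).

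TET1-ALT libraries lay below the controls at 3 members, against 10.6% of all sites, which were the 2 GNAS sites just given and KCNQ1OT1 2721611. They lay above the controls at 3 members (8.11%), against 3.51% of all sites. These were GNAS 57464804, GNAS 57464894 and GRB10 50850470. Each of these 3 had only 2 libraries with a value in either group, so fewer values had to fall in order there. At 57464894 the values were 27.2% and 28.8% with empty vector and 29.1% and 43.2% with TET1-ALT. KCNQ1OT1 as a cluster differed by -0.66 points (-2.45 to 1.13), GRB10 by -0.08 points (-1.29 to 1.14) and the high GNAS cluster by 0.86 points (-1.18 to 2.90). The largest cluster differences were -2.66 points at the last GNAS sites (-6.83 to 1.51, adjusted p = 0.831) and -2.45 points at the first MEG3 pair (-5.38 to 0.48, adjusted p = 0.762), where 0% of all clusters were called. The TET1-ALT and empty vector libraries overlapped in all 10 member clusters, where TET1-ALT lay below at 9.67% of all clusters.

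**Figure D4:**
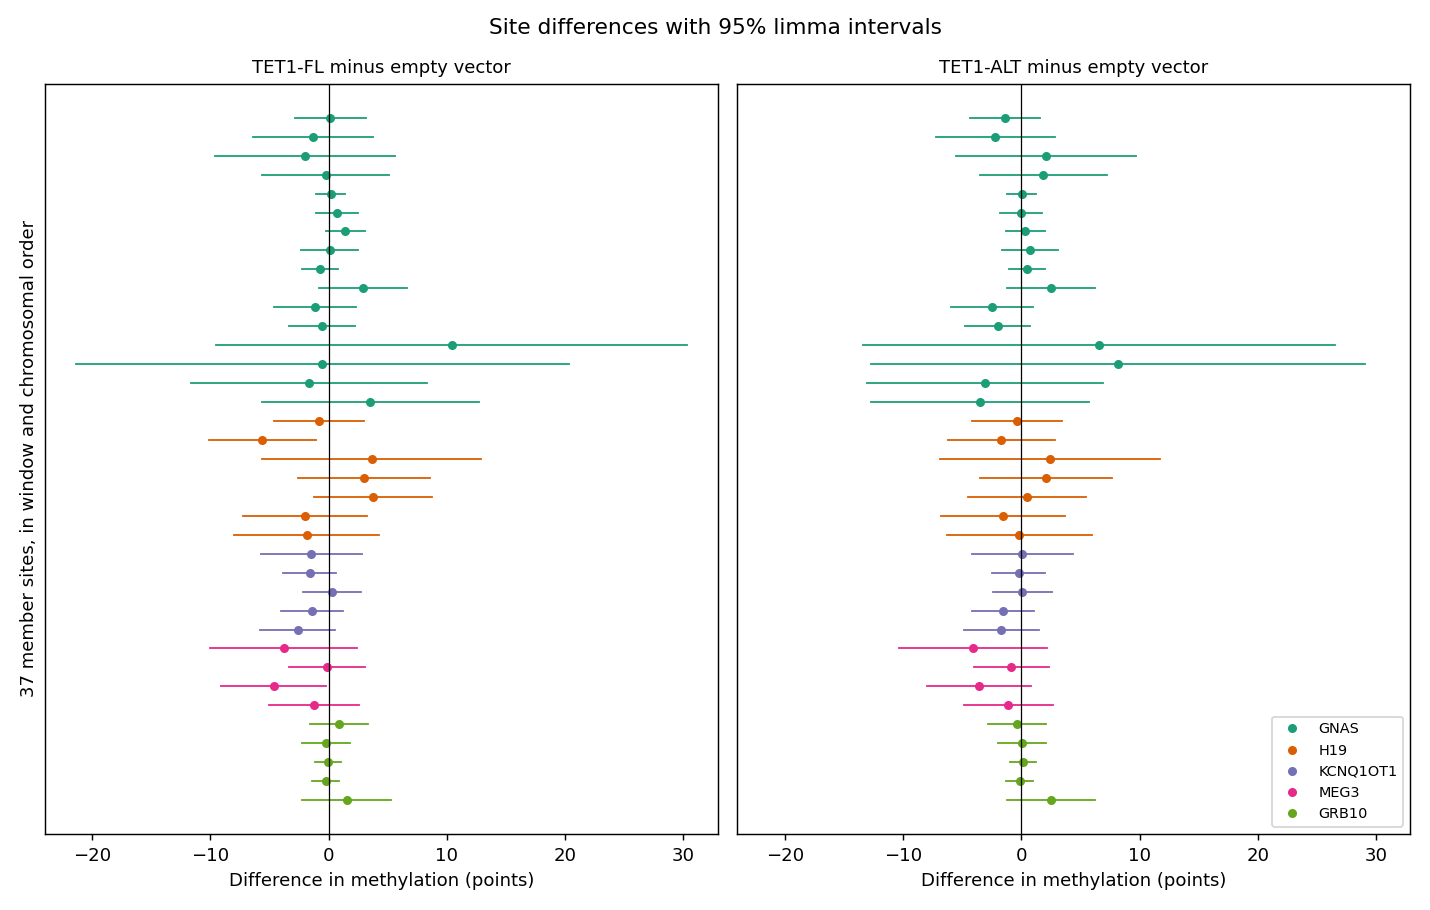
Difference in methylation (points) from empty vector at each of the 37 member sites, for TET1-FL and for TET1-ALT, with 95% limma intervals and colours for the 5 windows; both panels use the same empty vector libraries. The intervals of all sites include 0 except H19 2015998 and MEG3 101291857 for TET1-FL, and neither passed the adjusted threshold.

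TET1-FL was finally compared with TET1-ALT, which lacks the domain known to bind unmethylated CpG. In limma, of the 37 members 0 passed the adjusted threshold, where 0% of all sites did, and the smallest adjusted p of a member was 0.936. The mean difference over members was -0.07 points and the median 0.14 points, beside -0.56 and -0.07 points over all sites. A lower mean in TET1-FL was seen at 18 members, against 60.7% of all sites. The unadjusted p was under 0.05 at 0 members, where 4.26% of all sites were lower and 1.14% higher. The members with the smallest p were H19 2015998 (limma difference -3.94 points, adjusted p = 0.936), GNAS 57446253 (-1.24, adjusted p = 0.946) and GNAS 57465494 (7.03, adjusted p = 0.954). The last had 3.66%, 13.8% and 10.5% in TET1-ALT, 11.5%, 21.5% and 16.1% in TET1-FL and 6.79%, 18.7% and 12.97% with empty vector, so the groups overlapped. TET1-FL libraries lay below those of TET1-ALT at 1 member, GRB10 50850470 with 2 libraries a group, where 7.38% of all sites did so, and above at 0, against 2.14%. Among clusters, where 0% of all were called, the 95% interval was -1.05 to 1.38 points at GRB10, -2.50 to 1.08 points at KCNQ1OT1 and -0.91 to 7.43 points at the last GNAS sites, the widest apart of the 10 at 3.26 points.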

How the data were processed

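DNA methylation was taken from the authors' deposited table, whose values are percent methylation per CCCGGG site on hg19, per the file headers and the submitters' processing notes. Per the design text in the labels, the authors divided methylated by all reads and corrected for enzyme efficiency with spiked-in standards. Per the labels' protocols, libraries were amplified with 18 PCR cycles and a value needed at least 20 reads. Depth is otherwise unknown, so no interval from counts is given. Aligner and caller: not given in the sources used here. Libraries held 61549 to 72340 sites with a value and 34 to 37 members. The table has 21 rows off the genome, which were left out, and 0 values of exactly 0 or 100.

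The 64313 sites with values in at least 2 libraries of each group were fitted with limma 3.58.1 (R 4.3.3) on the percentages, with a mean for each group over all 9 libraries, an intensity trend and robust moderation. Adjusted p-values are Benjamini-Hochberg values over the whole table. Missing values were left out of a site's fit and not imputed. Region and cluster means used sites with all 9 values. The script was tested on simulated data of 31570 sites, with known TET1-FL differences put into 50 sites per size. These were sites with a mean of 30% or more and all 9 values, given independent normal noise. The rates therefore do not cover lower members, such as the KCNQ1OT1 sites, or members with missing values. At the adjusted threshold it recovered 10% of differences of -5 points and 26% of those of -10 points. It recovered 86% of those of -20 and 92% of those of -30 points, with 6 false calls. Most of the simulated differences of -5 and -10 points were thus missed, so real differences of that size can go uncalled.

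The members and gene lists were chosen with earlier results of these data known. Named sites were, per window, the lowest, the highest and the one nearest 50%, those beside a step, and per comparison the 3 of smallest p. Sites whose libraries did not overlap, clusters and the surroundings within 100 kb were added with the values in view. Results were recomputed with the replicate number as a block, on complete sites, on a log2 odds scale, with plain moderation in limma, with 2 groups only, after centring, with a 10-point minimum and without each library.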

Additional observations from a re-analysis of the deposited data

How the results depend on the processing

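No member passed the adjusted threshold in any fit run, and the count of sites called over the genome was 0 in every comparison except in the following fits. After centring each library on its highly methylated sites (80% and up), 17666 sites passed between TET1-FL and empty vector, 17154 of them higher, since that centring adds a constant to all sites. The same centring put the mean difference over the members at 0.847 points for TET1-FL against empty vector and 0.620 for TET1-FL against TET1-ALT. Leaving out each library gave 0 to 2 called sites for TET1-FL, 0 to 4 for TET1-ALT and 0 to 0 between the forms, the 2 and the 4 both without empty vector replicate 2. It gave mean member differences of -0.740 to 0.256, -0.286 to 0.118 and -0.709 to 0.286 points. Without TET1-FL replicate 2, -0.740 and -0.709 were found. Region levels stayed within 62.3 to 62.5% (GNAS), 60.3 to 61.1% (H19), 18.7 to 19.02% (KCNQ1OT1), 68.6 to 68.9% (MEG3) and 98.1 to 98.3% (GRB10). The share of intermediate members was 21.6% whichever library was left out. The median over sites gave 68.4% for GNAS, 17.9% for KCNQ1OT1 and 65.8% for MEG3, and all member sites gave 55.8% for GNAS. The intermediate share was 27.0% for a band of 30 to 70% and 16.2% for 40 to 60%. With the band of 35 to 65% it was 18.9% from the empty vector libraries only. In single libraries it ran from 16.2% (empty vector replicate 2) to 24.3% (TET1-ALT replicate 2 and TET1-FL replicate 2). The cause of these shifts was not tested beyond the construction of each setting.

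Deviations of same-numbered libraries correlated at -0.0153 to 0.0169, and of other pairs at -0.0257 to 0.0248. Site deviations thus showed no pairing by replicate number, which does not settle whether same-numbered libraries share a culture or batch. With the replicate block 0 sites were called in each comparison, and the mean member difference was -0.07, 0.02 and -0.10 points. At an unadjusted p under 0.05 in limma the block left 1 member lower and 2 higher in TET1-FL than in empty vector. Over the genome 5214 sites were lower and 889 higher in that fit. A stricter read minimum could not be run on percentages.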

Other observations

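The 5 KCNQ1OT1 sites had nearly the same level. Runs of 5 consecutive complete sites within 1000 bases numbered 2358 over the genome, and 552 of these, at 348 loci, had a mean of 15 to 85%. The highest and lowest of the 5 KCNQ1OT1 site means were 3.41 points apart, where the median of those 552 runs was 60.9 points. The KCNQ1OT1 run was the tightest of the 552. Runs whose 5 sites all lay between 10 and 30% were found at 7 loci, this one included. Sites this close can share restriction fragments and are not separate replicates. These limits were set after the values were seen, and the count is a description.

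In the windows, 15 sites had values in too few libraries for the rule, 13 of them without any in the empty vector libraries. Over the genome the empty vector libraries had values at 61549 to 66466 sites, TET1-ALT at 68830 to 69739 and TET1-FL at 66010 to 72340. The share of such sites over the genome is not given here. At PEG10 the site at 94286794 had 91.9% to 99.0% and the site at 94287423 had 53.5% to 72.5%, each in the 3 TET1-ALT and 3 TET1-FL libraries. At PLAGL1 TET1-ALT replicate 3 had 5.75% at 144328483 and 4.82% at 144329302. Beside the even KCNQ1OT1 sites, 4 sites between 2720716 and 2720919 had 1 value each, 56.2%, 93.7% and 97.5% in TET1-ALT replicate 1 and 96.9% in TET1-FL replicate 2. At GNAS the site at 57466182 had 0.68% to 1.80% in 7 libraries. The H19 site at 2021312 had 5.22% to 23.5% in 5 libraries, next to the low site described above.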
